A study of Homo sapiens with 15 samples.

Results

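The 40 interferon-stimulated genes described here were listed by name, as well-known genes that interferon switches on. All 40 were measured, among 19775 genes in all, by 76 of the 41091 probe sets that carry a single gene symbol. Where a gene has several probe sets, the 1 with the highest average signal in the 15 arrays was read, and 24 of the 40 genes have more than 1 probe set. Total RNA of 9 human lymphoid cell lines, with no treatment named in the labels, was labelled with biotin and hybridised to Affymetrix U133 Plus 2.0 arrays. The 6 lines from classical Hodgkin lymphoma were L428, L1236, KM-H2 and HDLM2, with 2 arrays each, and L540Cy and L540, with 1 array each. The non-Hodgkin lines were Namalwa (Burkitt lymphoma, 2 arrays), SU-DHL-4 (a B cell lymphoma of non-Hodgkin type, 1 array) and Reh (B cell acute lymphoblastic leukaemia, 2 arrays). The study's design text calls the duplicates biological, and each line is a single established culture that stands for 1 tumour. L540Cy is known from background as a subline of L540, so the 2 were averaged wherever lines of origin were compared. All values are log2 signals, so a difference of 1 log2 is a change by a factor of 2 in signal. In such bulk RNA, fewer cells that express a gene and less RNA of it per cell cannot be told apart.

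Interferons are cytokines of antiviral defence. Type I interferons signal through the receptor of IFNAR1 and IFNAR2 and the kinases JAK1 and TYK2, which activate a transcription factor complex that contains IRF9. That complex binds the interferon-stimulated response element in promoters and switches on genes whose proteins sense viral RNA, block its translation, degrade it or hinder viral entry and budding. Interferon gamma acts through another receptor and is a strong inducer of the guanylate-binding proteins. Many of these genes also have a basal level without added interferon.

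The promoters of several of these genes hold that response element as literal letters. Its core was searched as GAAA, 2 bases of any kind and GAAA again, on both strands, with overlapping matches allowed, in RefSeq windows (GRCh38.p14) from 250 bases before to 50 bases after a gene's start. Of the 40 genes, 31 had at least 1 window. A match was found in 28 of their 41 windows (68.3%), and 24 of the 31 genes had one. Over all 35116 windows in the table the share was 3.57%. The windows below are shown because the first 6 genes were lower in L540Cy than in L540, as described further on, and because HERC5 and HERC6 are neighbours on chromosome 4 with different patterns over the lines. Each runs 5′ to 3′ from 180 bases before to 10 bases after the start, and capitals mark the response element core.
IFI44L, chr1:78620268-78620457 (+ strand): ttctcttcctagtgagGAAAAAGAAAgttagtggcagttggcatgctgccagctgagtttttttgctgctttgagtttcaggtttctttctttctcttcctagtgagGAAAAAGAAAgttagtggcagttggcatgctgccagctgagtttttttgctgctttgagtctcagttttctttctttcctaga
EIF2AK2, chr2:37156971-37157160 (- strand): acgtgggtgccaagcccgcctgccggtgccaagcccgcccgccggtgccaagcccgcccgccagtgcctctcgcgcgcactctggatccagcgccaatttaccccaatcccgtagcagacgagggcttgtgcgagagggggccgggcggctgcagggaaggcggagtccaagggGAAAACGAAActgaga
PARP14, chr3:122680659-122680848 (+ strand): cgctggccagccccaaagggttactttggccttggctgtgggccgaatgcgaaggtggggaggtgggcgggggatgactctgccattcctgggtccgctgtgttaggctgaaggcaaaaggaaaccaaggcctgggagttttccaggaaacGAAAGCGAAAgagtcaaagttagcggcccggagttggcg
PARP9, chr3:122564291-122564480 (- strand): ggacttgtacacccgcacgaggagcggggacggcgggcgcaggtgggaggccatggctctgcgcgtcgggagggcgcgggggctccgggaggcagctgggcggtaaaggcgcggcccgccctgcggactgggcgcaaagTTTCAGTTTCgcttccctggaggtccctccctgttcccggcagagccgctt
XAF1, chr17:6755267-6755456 (+ strand): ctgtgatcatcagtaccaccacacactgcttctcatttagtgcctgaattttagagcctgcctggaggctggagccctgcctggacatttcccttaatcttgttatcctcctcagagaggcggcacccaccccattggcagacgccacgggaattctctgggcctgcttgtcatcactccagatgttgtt
IFI35, chr17:43006604-43006793 (+ strand): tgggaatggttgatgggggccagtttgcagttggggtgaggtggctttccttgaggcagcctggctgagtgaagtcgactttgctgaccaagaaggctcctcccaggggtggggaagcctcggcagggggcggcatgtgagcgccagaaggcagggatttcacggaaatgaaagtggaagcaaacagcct
HERC5, chr4:88456939-88457128 (+ strand): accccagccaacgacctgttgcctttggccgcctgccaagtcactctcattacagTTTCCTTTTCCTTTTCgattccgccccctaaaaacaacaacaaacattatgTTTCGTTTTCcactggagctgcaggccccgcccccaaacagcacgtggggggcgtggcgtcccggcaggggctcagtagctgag
HERC6, chr4:88378672-88378861 (+ strand): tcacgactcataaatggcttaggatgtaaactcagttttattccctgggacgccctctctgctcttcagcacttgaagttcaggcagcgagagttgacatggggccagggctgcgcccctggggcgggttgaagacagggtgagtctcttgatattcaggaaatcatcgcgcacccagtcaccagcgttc

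IFI44L has 2 matches, beginning 164 and 73 bases before its start, and they lie in copies of a stretch of 76 identical bases that recurs after 91 bases. HERC5 has 3 matches, 2 of which overlap, and PARP14, PARP9 and EIF2AK2 have 1 each, at 29, 41 and 6 bases before the start. XAF1, IFI35 and HERC6 have none in these windows, which says only that these exact letters are not there.

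Some arrays stood apart from the rest. Reh replicate 1 carried genes typical of SU-DHL-4. There were 22 genes whose signal in SU-DHL-4 was more than 3 log2 above that in any array outside Reh replicate 1, and they differed between Reh replicates 1 and 2 by 3.995 log2 in the median. Namalwa replicate 2 had an upper quartile of 7.31 over all probe sets, against 7.54 to 7.72 in the other 14 arrays. The gap between the 3′ and 5′ probe sets of ACTB, a sign of RNA quality, was 0.78 in that array and 0.37 to 1.22 over all arrays. TNFRSF8, which encodes the Hodgkin cell marker CD30, lay at 9.24 to 12.77 in the Hodgkin arrays and at 5.62 to 6.83 in the others. The Hodgkin cell markers FUT4, IRF4 and FSCN1 were also higher in every Hodgkin array. For FSCN1 the gap was narrow, with 7.54 in L540 and 7.42 in Reh replicate 2. A further marker, CCL17, did not split this way: it was at 6.20 in L540, within the 5.85 to 6.62 of the non-Hodgkin arrays. The B cell marker CD79A lay at 5.67 to 6.33 in the Hodgkin arrays and at 11.92 to 12.72 in the others. The other B cell markers did not all split this way: PAX5 was at 10.99 and 10.63 in L1236, EBF1 at 8.98 and 8.49 in KM-H2 and 8.81 and 8.85 in HDLM2, BLK at 9.23 in L540Cy and 8.77 in L540, and MS4A1 at 4.12 in Reh replicate 2. Of 5 T cell markers, CD3E and CD3G stayed at 6.03 or less in all 15, while CD2 was at 11.30 and 10.19 in HDLM2, CD3D at 8.75 and 8.44 in KM-H2 and TRBC1 at 7.77 in Namalwa replicate 2 and 9.87 in replicate 1. Among markers of the plasmacytoid dendritic cell, the main interferon-producing cell of blood, CLEC4C stayed between 3.37 and 4.04 and LILRA4 between 5.70 and 6.32. IL3RA was at 10.66 and 10.06 in HDLM2, 9.29 and 9.24 in L428 and 7.76 and 7.86 in L1236, against 6.67 or less in the other arrays.

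**Figure D1:**
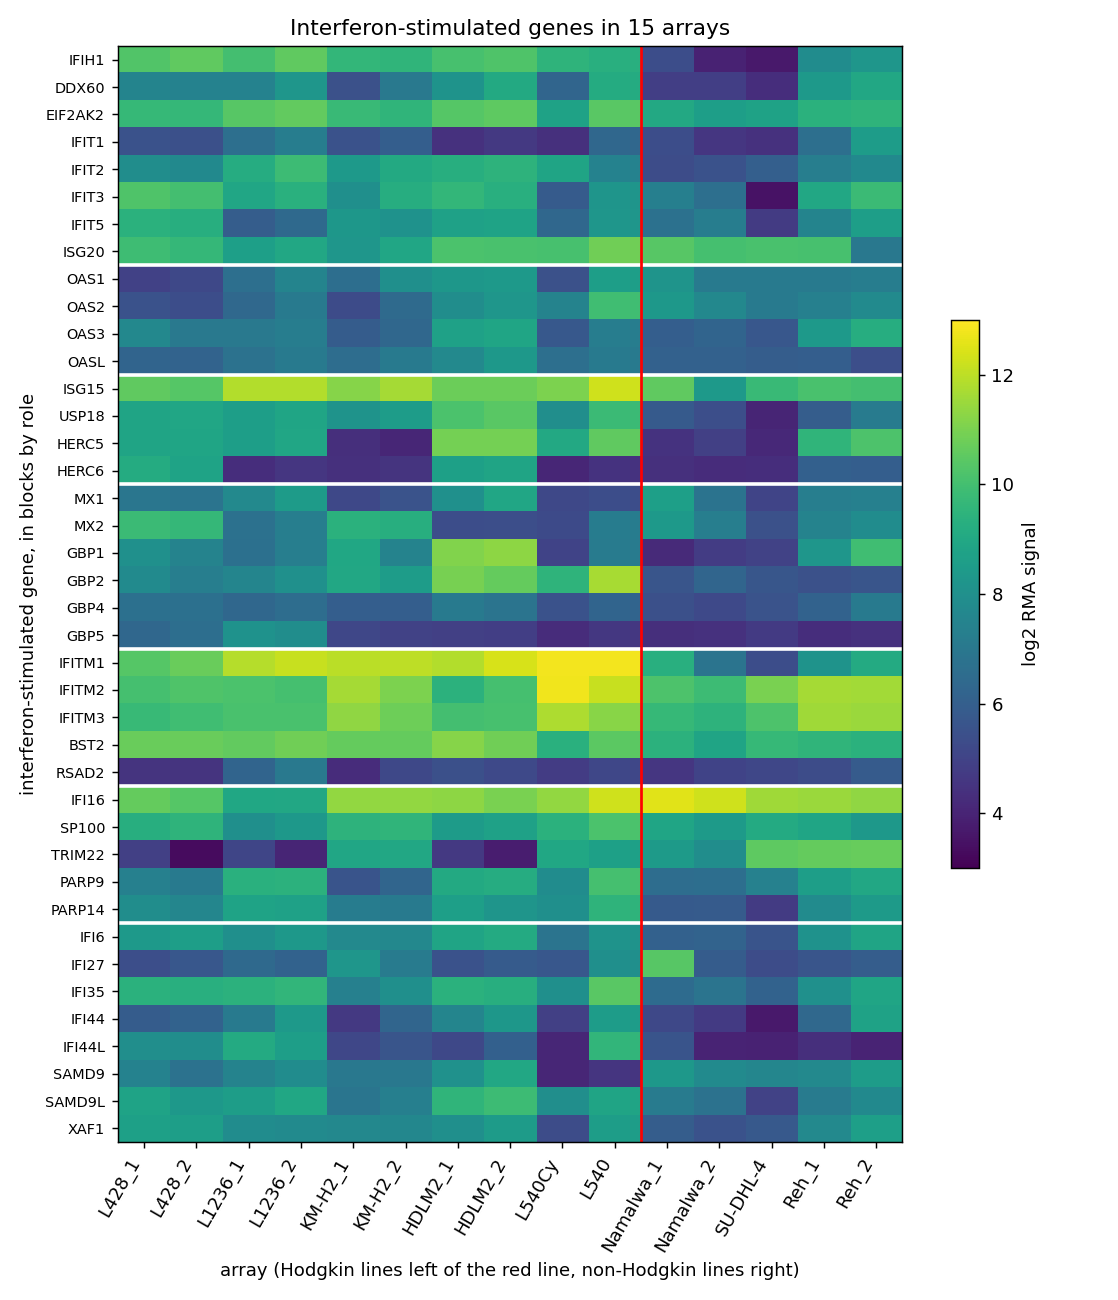
Log2 RMA signal of the 40 interferon-stimulated genes (rows, in blocks by role from RNA sensing at the top to other genes at the bottom) in the 15 arrays (columns), on a colour scale in log2. IFITM1 is above 10 in every Hodgkin array, SU-DHL-4 is dark in many rows, and IFI44L drops to 4.08 in L540Cy, against 9.58 in L540.

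The lines differed widely in these genes. The median over the 40 genes was 8.79 log2 in HDLM2, 8.20 in L428, 8.12 in L1236, 7.93 in L540 with its subline and 7.68 in KM-H2. It was 8.12 in Reh, 6.64 in Namalwa and 5.56 in SU-DHL-4, while the median over all genes stayed between 6.29 and 6.51 in the 8 lines of origin. Taken alone, the L540 array had a median of 8.76 over the 40 genes, near that of HDLM2, and the L540Cy array 7.17. Among the 8 lines of origin, with L540 and L540Cy averaged, HDLM2 had the highest level of 13 of the 40 genes, against 12.7% of all genes. L1236 had that of 9, against 10.5%. SU-DHL-4 had the lowest level of 18 of the 40, against 12.6% of all genes, and the highest of 0. An F test over the 9 lines (limma, on the 15 arrays) called 38 of the 40 genes at an adjusted p under 0.05, against a background of 51.9% of all genes. ISG20 and IFI27 did not pass (adjusted p = 0.231 and 0.286), and both differed strongly between the 2 arrays of a line. The spread behind this test comes from the 6 lines with duplicate arrays, and lines with 1 array were taken to vary like them.

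**Figure D2:**
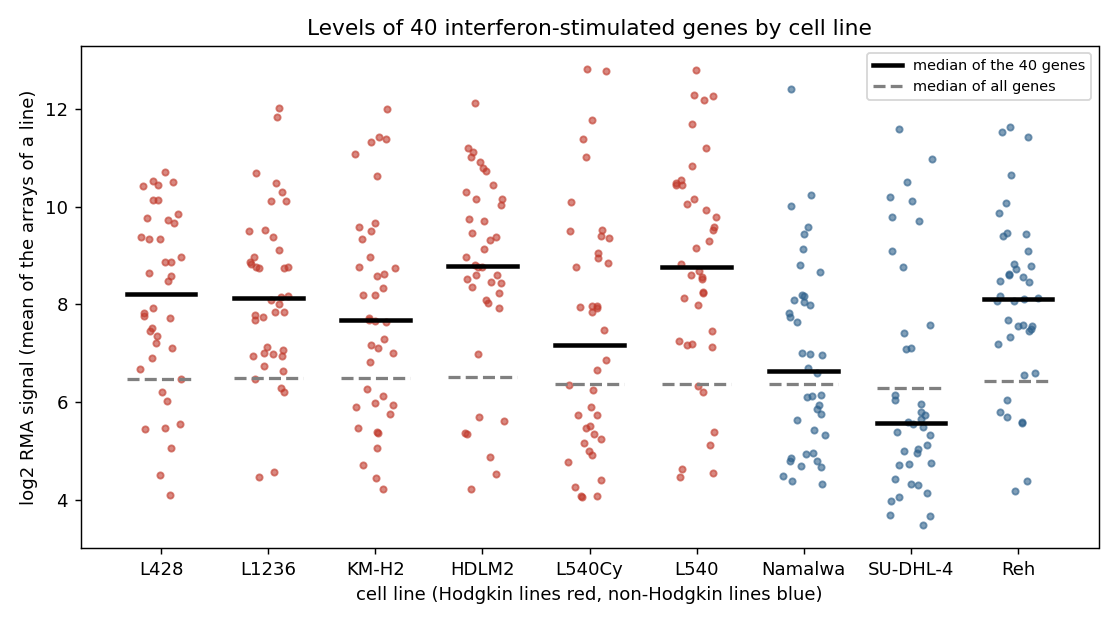
Log2 RMA signal of each of the 40 interferon-stimulated genes (points) in the 9 cell lines, as the mean of a line's arrays, with Hodgkin lines in red and non-Hodgkin lines in blue. The black bar is the median of the 40 genes, from 8.79 in HDLM2 to 5.56 in SU-DHL-4, and the dashed bar the median of all genes.

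Among genes that sense or bind viral RNA, IFIH1 set the Hodgkin lines apart most. IFIH1 encodes MDA5, a cytosolic sensor of long double-stranded RNA. Its 10 Hodgkin arrays lay between 9.29 and 10.57 log2, against 5.36 and 3.97 in Namalwa, 3.68 in SU-DHL-4 and 7.88 and 8.24 in Reh, with no overlap. IFIT3, whose protein supports the cap-binding complex of IFIT1 on foreign RNA, was highest in L428 (10.24 and 10.02) and lowest in SU-DHL-4 (3.47). Its other probe set was also lowest in SU-DHL-4, but at 6.39, near Namalwa replicate 2 (6.78) and L540Cy (6.87). IFIT5 was at 9.40 and 9.26 in L428 but at 5.97 and 6.43 in L1236. IFIT1 was dim in most lines, at 4.42 and 4.66 in HDLM2 and at 6.64 and 8.52 in Reh, so HDLM2 held high IFIT2 (9.27 and 9.48) and IFIT3 (9.62 and 9.30) beside a low IFIT1. EIF2AK2, which encodes the kinase PKR that stops translation, had the narrowest range of the 8 genes in this group, 1.73 log2 over the lines.

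The OAS genes encode synthetases that make 2-5A, the activator of the RNA-degrading enzyme RNase L (OASL is a relative that makes none). Their order over the lines was not shared. OAS1 and OAS2 were lowest in L428, with OAS1 at 4.94 and 5.19 and OAS2 at 5.54 and 5.36. L540 had the highest of both, at 8.59 for OAS1 and 9.92 for OAS2. OAS3 was highest in Reh (8.42 and 9.22) and HDLM2 (8.71 and 8.89), and OASL in HDLM2 (7.72 and 8.32).

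The genes of the ISG15 pathway, a ubiquitin-like tag on proteins, differed widely between lines, HERC5 by 6.77 log2 between its highest and lowest line. HERC5, the main ligase that attaches ISG15, was at 10.91 and 10.90 in HDLM2, 9.05 in L540Cy, 10.54 in L540 and 9.54 and 10.21 in Reh. It was at 4.35 and 4.08 in KM-H2, 4.48 and 4.91 in Namalwa and 4.14 in SU-DHL-4. HERC6, its neighbour on chromosome 4, followed another pattern, at 9.15 and 8.80 in L428 and 8.70 and 8.84 in HDLM2. HERC6 lay between 4.06 and 4.58 in L1236, KM-H2, L540Cy, L540, Namalwa and SU-DHL-4, and at 6.06 and 6.01 in Reh. USP18, which removes ISG15 and dampens type I receptor signalling, was at 10.17 and 10.44 in HDLM2 and at 4.05 in SU-DHL-4. ISG15 itself lay between 10.36 and 12.26 in the Hodgkin arrays. It was at 10.54 and 8.36 in Namalwa, 9.79 in SU-DHL-4 and 10.13 and 10.01 in Reh, so Namalwa replicate 1 lay within the Hodgkin range.

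The GTPase genes were also split between lines, in patterns of their own. MX2, which restricts the nuclear import of viral genomes, was at 9.81 and 9.67 in L428 and 9.39 and 9.28 in KM-H2, but at 5.36 and 5.38 in HDLM2. Its relative MX1, which acts on many RNA viruses, was highest in HDLM2, with 8.92 in replicate 2, and at 5.15 and 5.56 in KM-H2. HDLM2 was thus high in MX1 and low in MX2, KM-H2 the other way round, and Namalwa replicate 1 had 8.66 and 8.37 of the 2. Among guanylate-binding proteins, which attack vacuoles of pathogens, GBP1 reached 11.11 and 11.32 in HDLM2, against 9.93 or less in the other 13 arrays. GBP2 was highest in L540 (11.70) and HDLM2 (10.94 and 10.63), and between 5.47 and 6.27 in the 5 non-Hodgkin arrays. GBP5 was at 8.09 and 7.90 in L1236, against 6.60 or less elsewhere.

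Among membrane proteins, IFITM1, which blocks fusion of viruses at the cell surface, lay between 10.35 and 12.83 in the Hodgkin arrays. It was at 9.32 and 6.85 in Namalwa, 5.38 in SU-DHL-4 and 8.12 and 9.09 in Reh. IFITM2 and IFITM3, close paralogues that act in endosomes, showed no such gap, at 9.43 to 12.78 and 9.74 to 11.78 in the Hodgkin arrays and 9.84 to 11.66 and 9.47 to 11.58 in the others. Both were read by probe sets of the type that can match several near-identical transcripts, so their signals may mix the paralogues. IFITM1 was read by a single probe set, also of a type that can match more than 1 transcript. A probe set that carries the symbols of both IFITM1 and IFITM2 gave similar values, at 9.14 and 6.72 in Namalwa and 5.95 in SU-DHL-4. BST2, which encodes tetherin and holds budding virions at the cell surface, ranged from 9.37 to 11.19 in the Hodgkin arrays and from 8.83 to 9.70 in the others. RSAD2, which encodes viperin, stayed between 4.25 and 7.06 in all arrays, highest in L1236 (6.21 and 7.06).

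Among nuclear proteins, TRIM22, a ligase that restricts retroviral transcription, was low in some Hodgkin lines and high in SU-DHL-4 and Reh. It was at 3.30 to 5.10 in the arrays of L428, L1236 and HDLM2 and at 8.68 or more in those of KM-H2, L540Cy and L540. SU-DHL-4 had 10.51 and Reh 10.65 and 10.67. IFI16, a nuclear DNA sensor, was bright in all lines and lowest in L1236 (8.96 and 8.99). PARP9 was lowest in KM-H2 (5.60 and 6.27) and highest in L540 (10.07). SAMD9, a growth-restraining antiviral gene, was at 4.06 in L540Cy and 4.55 in L540, against 6.78 or more in all other arrays, while its neighbour SAMD9L was at 7.93 and 8.83 there.

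The comparison of Hodgkin with non-Hodgkin lines called 2 of the 40 genes higher, USP18 and IFITM1, and 0 lower. USP18 was at 9.03 ± 0.75 (SD, n = 5 lines) in Hodgkin lines and 5.41 ± 1.27 (SD, n = 3) in non-Hodgkin lines, 3.62 ± 0.63 log2 higher (SE, limma adjusted p = 0.047). IFITM1 was at 11.90 ± 0.84 in Hodgkin lines and 7.36 ± 1.73 in non-Hodgkin lines, 4.54 ± 0.80 log2 higher (SE, limma adjusted p = 0.0486). The background was 0.759% of all genes called higher and 0.612% lower. At an unadjusted p under 0.05, 13 of the 40 genes were higher and 1 was lower in limma. IFIH1 differed by 4.50 ± 0.91 log2 (adjusted p = 0.072) and GBP2 by 3.36 ± 0.83 log2 (adjusted p = 0.123), without passing. The largest differences the other way, also without passing, were those of TRIM22 (-3.65 log2, adjusted p = 0.316), IFI16 (-1.04) and SAMD9 (-0.99). The median difference over the 40 genes was 1.22 log2 and over all genes -0.02 log2, with 31 of the 40 on the higher side. In 10 of the 40 genes all 5 Hodgkin lines lay above all 3 non-Hodgkin lines, against 5.17% of all genes, and in 0 of the 40 below, against 5.5%. These 10 were IFIH1, EIF2AK2, IFIT2, OASL, ISG15, USP18, GBP2, IFITM1, BST2 and IFI44L. For EIF2AK2, IFIT2, BST2 and IFI44L this held only with L540 and L540Cy averaged. L540Cy alone had IFI44L at 4.08 (Namalwa 4.79), EIF2AK2 at 8.77 (Reh 9.44) and BST2 at 9.37 (SU-DHL-4 9.70). L540 alone had IFIT2 at 7.45 (Reh 7.50). Both calls were lost without Reh replicate 1, Namalwa replicate 2 or KM-H2 replicate 2, and without the line L1236, KM-H2, HDLM2, L540, Namalwa or SU-DHL-4. Of 33 alternatives, USP18 was called in 20 (adjusted p = 0.00268 to 0.131 over all of them) and IFITM1 in 19 (0.00234 to 0.139), while their differences stayed at 2.94 to 4.19 and 3.32 to 5.17 log2. USP18 alone remained without L428 replicate 2, HDLM2 replicate 2 or, beside IFIH1, the line Reh, and IFITM1 alone without HDLM2 replicate 1, the line L428 or the array of L540.

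Each line of origin was then set against the mean of the other 7, with the spread of duplicate arrays as the error. These comparisons share their samples, so their counts are given side by side only. HDLM2 had 27 of the 40 genes higher (67.5%, against 14.0% of all genes) and 6 lower (against 13.0%). L1236 had 19 higher (background 14.4%) and 6 lower (10.6%), L540 had 15 higher (11.8%) and 7 lower (13.8%), and L428 had 14 higher (12%) and 7 lower (11.7%). KM-H2 had 12 higher (15.2%) and 8 lower (12.9%). Namalwa had 3 higher (11.3%) and 25 lower (16.5%), SU-DHL-4 had 1 higher (8.0%) and 23 lower (9.72%), and Reh had 14 higher (11.0%) and 7 lower (10.8%). Counts moved by over 1.5 times when a line kept a single array. L1236 then had 12 or 10 higher, KM-H2 4 or 5 higher and, without its replicate 1, 3 lower, and HDLM2 3 lower. Reh had 7 higher without its replicate 2, L428 had 4 lower without its replicate 2, and Namalwa had 1 higher without its replicate 1, L428 replicate 2 or L1236 replicate 1. SU-DHL-4 had 2 higher without Reh replicate 1.

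**Figure D3:**
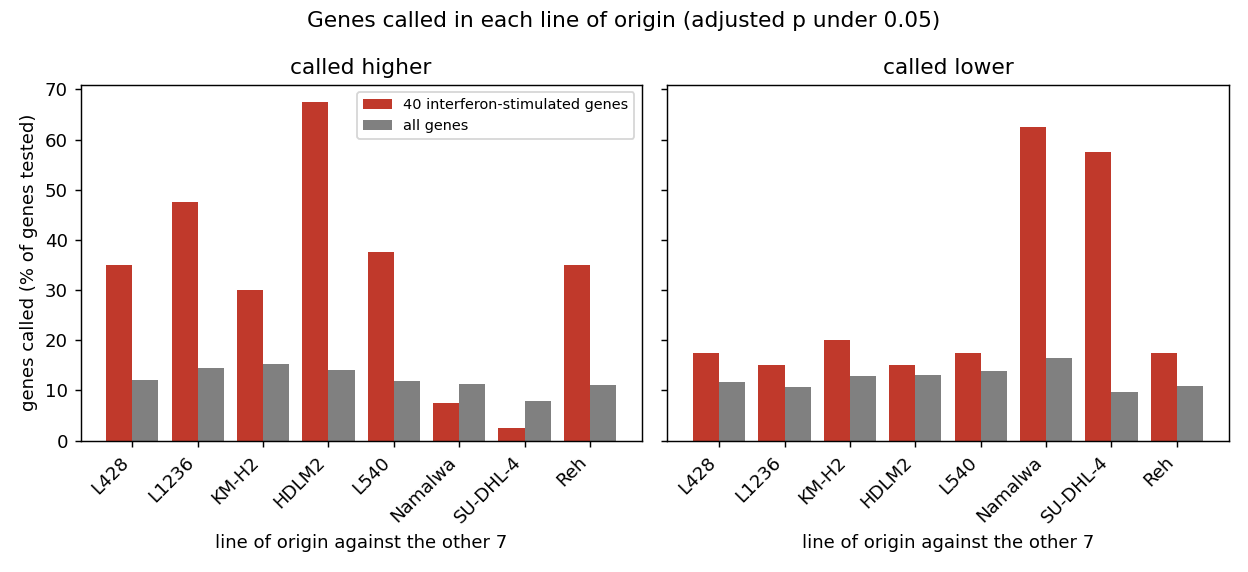
Share of genes called higher (left) and lower (right) in each line of origin against the mean of the other 7, for the 40 interferon-stimulated genes (red) and all 19775 genes (grey). HDLM2 reaches 67.5% higher, while Namalwa and SU-DHL-4 reach 62.5% and 57.5% lower.

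The genes behind these counts differed from line to line. In HDLM2 the largest rises were GBP1 (4.42 ± 0.44 log2, SE, limma adjusted p = 4.41e-05), HERC5 (3.72 ± 0.18) and HERC6 (3.51 ± 0.13), then GBP2, USP18 and SAMD9L, and the largest falls were TRIM22 (-3.75 ± 0.39) and MX2 (-2.24 ± 0.24). In L428 HERC6 (3.74 ± 0.13 log2), MX2 (2.75 ± 0.24) and IFIH1 (2.44 ± 0.29) rose, and TRIM22 (-3.89 ± 0.39), OAS1 (-2.32 ± 0.35) and OAS2 (-1.99 ± 0.30) fell. In L1236 IFI44L (3.34 ± 0.36 log2), GBP5 (3.10 ± 0.11) and IFIH1 (2.30 ± 0.29) rose, and TRIM22 (-3.35 ± 0.39), IFI16 (-2.49 ± 0.13) and IFIT5 (-1.43 ± 0.25) fell. In KM-H2 MX2 (2.29 ± 0.24 log2) and IFITM1 (2.06 ± 0.49) rose, and HERC5 (-3.93 ± 0.18) and PARP9 (-2.27 ± 0.17) fell. In L540 with its subline GBP2 (3.18 ± 0.22 log2), HERC5 (2.45 ± 0.18) and also IFITM1 rose, and SAMD9 fell (-3.42 ± 0.29).

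Among non-Hodgkin lines, the largest falls in Namalwa were IFIH1 (-4.13 ± 0.29 log2, SE, limma adjusted p = 6.35e-06), HERC5 (-3.38 ± 0.18) and GBP1 (-3.26 ± 0.44). IFI16, OAS2 and SAMD9 were its 3 rises, at 1.43, 0.91 and 0.87 log2. In SU-DHL-4, with a single array, IFITM1 (-5.50 ± 0.66 log2), IFIH1 (-5.26 ± 0.39), IFIT3 (-5.21 ± 0.43) and USP18 (-4.14 ± 0.35) fell. TRIM22 was the 1 rise of SU-DHL-4, at 3.43 ± 0.53 log2 (adjusted p = 0.00153). Reh had rises of TRIM22 (3.61 ± 0.39 log2), HERC5 (2.54 ± 0.18) and IFIT1 (2.23 ± 0.39) beside falls of GBP2 (-2.59 ± 0.22), IFI44L (-2.02 ± 0.36) and IFITM1 (-1.81 ± 0.49). By role, the genes lower in SU-DHL-4 (9.72% of all genes) were 6 of 8 RNA-binding, 1 of 4 OAS, 3 of 4 ISG15 pathway, 5 of 6 GTPase, 1 of 5 membrane, 1 of 5 nuclear and 6 of 8 other genes. Those lower in Namalwa (16.5% of all genes) were 5 of 8 RNA-binding, 1 of 4 OAS, 4 of 4 ISG15 pathway, 4 of 6 GTPase, 4 of 5 membrane, 2 of 5 nuclear and 5 of 8 other genes.

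L540Cy, the subline, was set against its parental line L540, with 1 array each. The largest difference was that of IFI44L, which dampens innate antiviral responses: it had 4.08 log2 in L540Cy, against 9.58 in L540, a fall of -5.50 ± 0.67 log2 (SE, limma adjusted p = 0.00452). XAF1, a pro-apoptotic gene, had 5.34 in L540Cy and 8.55 in L540 (-3.22 ± 0.41 log2, adjusted p = 0.00576). IFI35 had 7.96 in L540Cy and 10.43 in L540 (-2.47 ± 0.40 log2, adjusted p = 0.0183). PARP9, a partner of the ligase DTX3L, had 7.85 in L540Cy and 10.07 in L540 (-2.22 ± 0.32 log2, adjusted p = 0.0104). GBP2, EIF2AK2 and PARP14 also fell, by -2.18, -1.68 and -1.54 log2 (adjusted p = 0.0304, 0.0147 and 0.0492). In total 7 of the 40 genes fell (17.5%, against 0.845% of all genes called lower) and 0 rose (against 0.642%), with 1 gene, IFIT2, higher at an unadjusted p under 0.05.

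Most of the other genes lay on the same side without passing. Of the 40, 34 had a lower value in L540Cy, the median difference was -1.38 log2, against -0.02 log2 over all genes, and 23 were over 1 log2 lower, against 2.62% of all genes. IFIT2 was the 1 gene over 1 log2 higher, against 2.91%. OAS1 had 5.46 in L540Cy and 8.59 in L540 (-3.13 log2, adjusted p = 0.0526), IFI44 had 4.91 and 8.52 (-3.61 log2, adjusted p = 0.169) and DDX60 6.25 and 9.16 (-2.91 log2, adjusted p = 0.0851). The exceptions included genes that were high in both. IFITM1 had 12.83 in L540Cy and 12.81 in L540, IFIH1 9.50 and 9.29, and IFIT2 8.85 and 7.45. Of 57 probe sets of these genes with a mean of at least 6, 49 were lower in L540Cy, 31 by over 1 log2, and 1 was over 1 log2 higher. EIF2AK2 had a probe set of the cross-matching type at -1.68 log2 and a second, gene-specific one at -1.24 log2, and with the mean of its probe sets it was not called.

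The size of this list depended on arrays of other lines, through the spread. Without Reh replicate 1, or without Reh replicate 2, 15 genes were called lower, the 7 among them, and with the arrays quantile-normalized again 12 were. Without both Reh replicate 1 and Namalwa replicate 2, an alternative chosen after seeing the data, 21 were called lower. IFI44L, XAF1, IFI35 and PARP9 were called in all 19 alternatives run, GBP2 in 15, EIF2AK2 in 17 and PARP14 in 5. The ACTB gap between 3′ and 5′ probe sets was 1.22 in L540Cy and 0.95 in L540, the largest and the fourth of the 15 arrays, and its part in the result was not tested. Upper quartiles over all probe sets were 7.59 in L540Cy and 7.54 in L540. The T cell marker CD2 was at 4.89 in L540Cy and 6.70 in L540, and its part was not tested either.

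**Figure D4:**
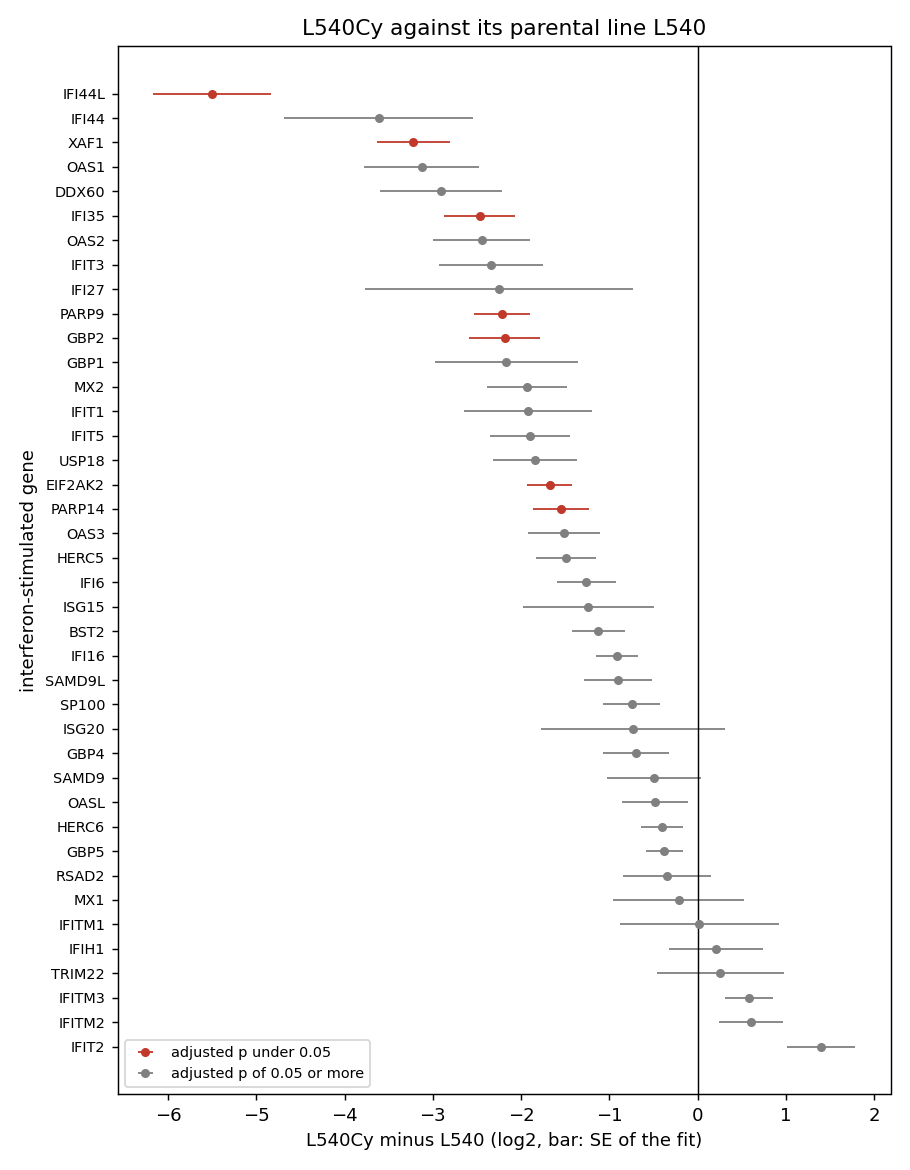
Difference of each of the 40 interferon-stimulated genes between L540Cy and L540 (horizontal axis, log2, with the SE of the fit as the bar), sorted by size. The 7 genes with an adjusted p under 0.05 (red) all lie below 0, led by IFI44L at -5.50, and 34 of the 40 points lie below 0.

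These genes also differed between the 2 arrays of a line. The duplicate SD over the 40 genes was above that over all genes with a mean of at least 6 in each of the 6 lines with 2 arrays: 0.26 against 0.17 log2 in L428, 0.35 against 0.21 in L1236, 0.49 against 0.21 in KM-H2, 0.31 against 0.27 in HDLM2, 0.77 against 0.37 in Namalwa and 0.65 against 0.51 in Reh. No test was made, since a line has 1 pair. In KM-H2, IFI44 (6.28 in replicate 2, 4.64 in replicate 1), DDX60 (7.04 and 5.47), OAS1 (7.99 and 6.61), IFIT3 (9.24 and 7.99) and OAS2 (6.48 and 5.30) were over 1 log2 higher in replicate 2, 5 of the 40 against 0.511% of all genes. GBP1 was at 7.45 in replicate 2 and 8.95 in replicate 1, and with IFI27 it made 2 of the 40 over 1 log2 lower, against 0.551%. L1236 had 1 gene over 1 log2 higher (against 0.526% of all genes) and 1 lower (0.192%), L428 had 0 higher (0.162%) and 1 lower (0.0657%), and HDLM2 had 0 in both directions (1.22% and 0.228%).

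The largest differences were those between the Namalwa arrays. IFI27, a mitochondrial protein gene and a common marker of interferon exposure, was at 5.92 in Namalwa replicate 2 and 10.42 in replicate 1, a difference of -4.50 log2. IFITM1 was at 6.85 and 9.32, ISG15 at 8.36 and 10.54, MX1 at 6.80 and 8.66 and IFI44L at 3.98 and 5.60. IFIH1, MX2 and OAS1 differed by -1.39, -1.09 and -1.05 log2. These 8 of the 40 were over 1 log2 lower in replicate 2, against 3.54% of all genes, and 0 were over 1 log2 higher, against 3.35%. GBP2, GBP1 and IFIT5 had the largest differences the other way, at 0.64, 0.57 and 0.50 log2. Their other probe sets did not share this direction, at -0.31 for GBP2, -0.10, -0.21 and 0.0045 for GBP1 and -0.25 for IFIT5. Among the 8 lower genes, other probe sets had -1.35 log2 for OAS1 but -0.17 and 0.26 for IFIH1. The replicate with lower values, replicate 2, is also the one with the low upper quartile and with the lower TRBC1. The B cell marker PAX5 was lower in it as well, at 10.95, against 11.96 in replicate 1. Some markers of precursor B cells were higher in replicate 2. DNTT was at 7.16 in replicate 2 and 5.87 in replicate 1, RAG2 at 7.98 and 6.51 and IGLL1 at 12.84 and 11.60. RAG1 (4.50 and 4.70) and VPREB1 (10.11 and 10.005) hardly differed. The part of any of these in the difference was not tested. With arrays quantile-normalized again 6 genes were over 1 log2 lower, and with arrays centred on their median 8 were.

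The Reh arrays differed in another set. IFI44 was at 8.76 in Reh replicate 2 and 6.37 in replicate 1, IFIT1 at 8.52 and 6.64, GBP1 at 9.93 and 8.25, USP18 at 7.14 and 5.97 and IFIT5 at 8.62 and 7.53. ISG20, an exonuclease gene, ran the other way, at 7.02 and 10.08, where SU-DHL-4 had 10.11. In all 5 were over 1 log2 higher (against 2.8% of all genes) and 1 lower (against 3.16%). The SU-DHL-4 genes seen in Reh replicate 1 moved with these differences, and their part was not tested.

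**Figure D5:**
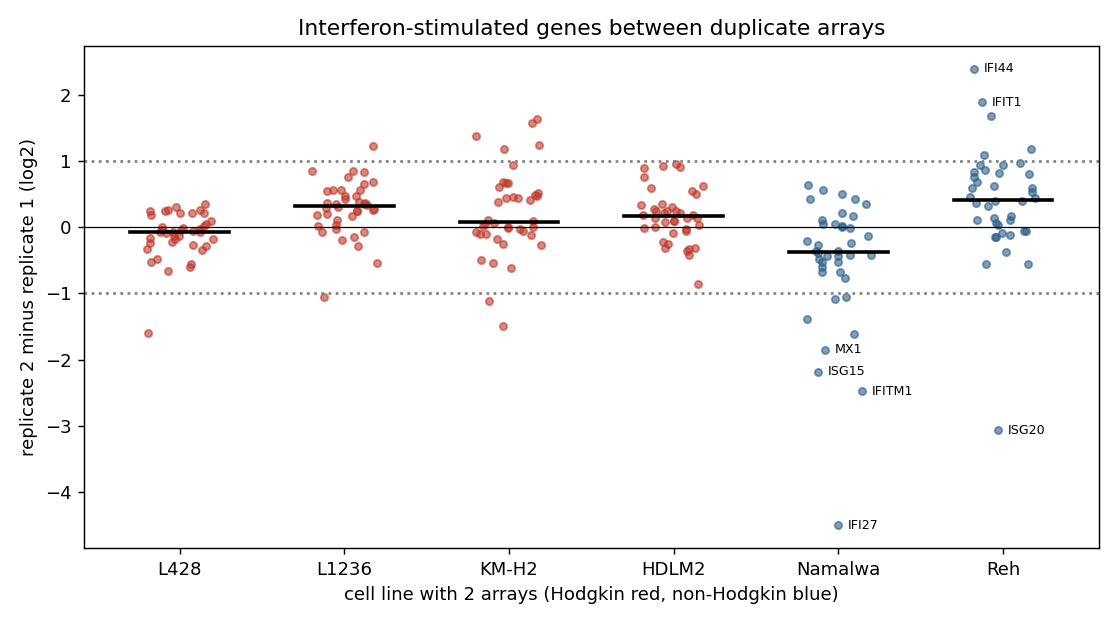
Replicate 2 minus replicate 1 (log2) for the 40 interferon-stimulated genes (points) in the 6 lines with 2 arrays, with the median as a bar and dotted lines at 1 and -1. Namalwa has 8 genes below -1, IFI27 the lowest at -4.50, and Reh has ISG20 at -3.06 and IFI44 at 2.39.

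The pathway upstream was read from further gene lists. Of 18 interferon genes limma called 0 in the comparison of Hodgkin with non-Hodgkin lines, between L540Cy and L540 and in any line of origin, and at an unadjusted p under 0.05 at most 2 passed, in Namalwa. Their medians over the arrays lay between 3.33 and 5.38 log2, and IFNB1 in Namalwa replicate 2 (5.73, against 4.46 in replicate 1) was the only value over 1 log2 above its gene's median. IFNAR1 and IFNAR2 did not differ past the threshold between Hodgkin and non-Hodgkin lines (-0.24 and -0.88 log2, adjusted p = 0.768 and 0.363), nor did IRF9, IRF7, IRF1, IFNB1 or IFNG (1.61, 0.74, 0.82, -0.05 and 0.12 log2). The feedback inhibitors SOCS1 and SOCS3, which restrain JAK signalling, were higher in Hodgkin lines (3.61 and 5.08 log2, limma adjusted p = 0.0159 and 0.0484). They were 2 of 7 listed genes, against 0.759% of all genes called higher. TLR9, a sensor of DNA, was 1 of 15 sensing genes to fall (-2.07 log2, limma adjusted p = 0.027), against 0.612% of all genes. Of 11 JAK-STAT and IRF genes, HDLM2 had 8 higher and 1 lower (14.0% and 13.0% of all genes), L1236 had 5 and 0 (14.4% and 10.6%) and L540 had 4 and 0 (11.8% and 13.8%). L428 had 2 higher and 1 lower (12% and 11.7%), and KM-H2 had 2 and 4 (15.2% and 12.9%). Namalwa had 1 higher and 7 lower (11.3% and 16.5%), SU-DHL-4 had 0 and 7 (8.0% and 9.72%) and Reh had 2 and 6 (11.0% and 10.8%).

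A second list of 34 other interferon-stimulated genes had, against the same shares of all genes, 18 higher and 4 lower in L1236, 18 and 6 in HDLM2, 14 and 6 in L540, 12 and 5 in KM-H2 and 10 and 3 in L428. It had 11 higher and 9 lower in Reh, 2 and 22 in SU-DHL-4 and 1 and 19 in Namalwa. Between L540Cy and L540 it had 3 falls in limma, against 0.845% of all genes, and 0 rises, against 0.642%. The falls were SP110 (-1.75 log2, adjusted p = 0.00757), RTP4 (-2.44 log2, adjusted p = 0.0225) and DTX3L (-1.83 log2, adjusted p = 0.0345). In that comparison 25 of 34 were on the lower side (median -0.54 log2). TLR3, a sensor of double-stranded RNA, fell as well, at 3.79 in L540Cy and 6.59 in L540 (-2.80 log2, adjusted p = 0.047). IRF7, the factor that amplifies type I interferon, had 9.12 in L540Cy and 10.56 in L540 (adjusted p = 0.0664). Between the Namalwa arrays IRF9, the DNA-binding subunit of the type I complex, was at 7.21 in replicate 2 and 9.34 in replicate 1, and TNFSF10, which encodes TRAIL, at 5.27 and 7.42. The sensors CGAS and ZBP1 lay the other way, at 6.05 and 5.98 in replicate 2 and 4.09 and 4.85 in replicate 1. In all 2 of 15 sensing genes were over 1 log2 higher in replicate 2 and 0 lower, against 3.35% and 3.54% of all genes. Of the 34 other interferon-stimulated genes 0 were higher and 3 lower, and of the 11 JAK-STAT and IRF genes 0 were higher and 2 lower.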

How the data were processed

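The authors deposited 1 table of log2 signals per probe set, made with RMA, per the submitters' processing notes, which name no version. RMA corrects background, normalizes arrays and summarises probes, and it compresses differences near the background. Of 54675 probe sets, 62 controls, 1801 with several symbols and 11721 with no symbol in the platform annotation were left out. No dim genes were removed. Differences were tested with limma 3.58.1 in R 4.3.3, two-sided, and p-values were adjusted (Benjamini-Hochberg) over all 19775 genes, with calls at an adjusted p under 0.05. Hodgkin and non-Hodgkin lines were compared on means of 5 and 3 lines of origin, and single lines in a fit of 15 arrays with 6 residual degrees of freedom. Duplicates of Namalwa and Reh were compared without a test. The number of arrays limits the precision. The fits were tested on simulated data. The text leads with called genes of largest difference. Alternatives used other probe sets, a filter at 6 log2, other scalings and variance models, and fewer arrays or lines. The members, lists and rule for named genes were chosen with earlier results of these data known.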

Additional observations from a re-analysis of the deposited data

Results flagged for a closer look

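Among the 5 Hodgkin lines of origin, 2 of the 40 genes had a line whose gap to the nearest other line was over 0.71 of the whole range, a size that chance gives in about 1 of 20 groups. USP18 was at 10.30 in HDLM2, against 8.34 to 8.88 in the others, with L540 and L540Cy averaged. Read apart, L540 was at 9.80 and L540Cy at 7.96. IFI35 was at 7.67 in KM-H2, against 9.20 to 9.51 in the others, averaged likewise. Read apart, L540 was at 10.43 and L540Cy at 7.96. Both flags thus rest on the average of 2 unlike arrays, and 2 of 40 is no more than the share that chance gives.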

How the results depend on the processing

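Of 463 recomputed counts of called genes, 420 stayed within 1.5 times of the reported count. Hodgkin lines had 2 genes higher, 6 with the line as a random block over all arrays, 1 without L540 with L540Cy kept, and 0 without the arrays Reh 1 and Namalwa 2. On the 12 numbered arrays they had 4 with the replicate block, USP18 among them but not IFITM1, and 6 without it, both among them. Namalwa had 3 higher, 1 with the mean of all probe sets or centred arrays, 5 with arrays quantile-normalized again and 7 without Reh 1 and Namalwa 2, and SU-DHL-4 had 2 instead of 1 with the mean of all or the most variable probe sets or without those arrays. KM-H2 had 13 lower, not 8, with the replicate block (12 without it, on the same arrays). L540Cy had 7 lower, 12 with arrays quantile-normalized again and 21 without Reh 1 and Namalwa 2. Leaving out arrays or lines in turn gave 0 to 3 higher in Hodgkin lines, 4 to 9 lower in L428, 10 to 22 higher in L1236, 4 to 14 higher and 3 to 9 lower in KM-H2, 3 to 7 lower in HDLM2, 1 to 4 higher in Namalwa, 1 to 2 higher in SU-DHL-4, 7 to 17 higher in Reh and 5 to 15 lower in L540Cy. Fewer samples or another spread enter these fits, and other causes were not tested. Replicate numbers were not taken to pair the arrays, since the labels name no shared batch and not every pair of lines correlated over 0.1 in its differences of replicate 2 from 1 (r = -0.07 to 0.355). The 10 pairs without Namalwa lay at 0.144 to 0.355 and the 5 with it at 0.057 or less, which is a hint of pairing outside Namalwa. Of 2243 recomputed values of named genes 2111 were classed as the same, 120 as weaker, 9 as stronger and 3 as moved, and 0 changed direction.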

Other observations

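Some interferon-stimulated genes outside the 40 were high or low in only some of the lines. CXCL10, a chemokine that attracts T cells, was at 11.71 and 12.31 in L1236, 11.84 and 12.52 in KM-H2 and 7.73 and 7.61 in L428, against 5.37 or less in all other arrays. CMPK2, a nucleotide kinase gene next to RSAD2, was at 8.64 and 10.10 in Reh and 7.84 in SU-DHL-4, while RSAD2 was at 5.34 and 5.86 in Reh and 5.13 in SU-DHL-4. EPSTI1 lay between 8.49 and 10.82 in L428, L1236, KM-H2 and HDLM2, at 6.43 in L540Cy and 7.87 in L540. UBE2L6, the conjugating enzyme of ISG15, was at 5.90 in SU-DHL-4 and at 8.76 or more in the other 14 arrays. These genes were chosen after their values were seen, and no test is attached to them.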
